A study of Mus musculus with 4 samples.

Results

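The E proteins and their Id inhibitors are 6 genes, Tcf3, Tcf12, Tcf4, Id1, Id2 and Id3, taken as a named family and not by any measured value, out of 21896 protein-coding genes placed on the genome. Their chromatin accessibility was read from ATAC-seq, which inserts adapters into open DNA with a transposase, in sorted CD4+CD8+ double-positive (DP) thymocytes of C57BL/6 mice. The knockout (KO) group carried Cd4-cre together with homozygous floxed Chaf1b, and the control group, labelled wild type (WT), carried the same floxed Chaf1b alleles and no Cre. Cd4-cre acts from around the DP stage onward, Cre without floxed alleles was not analysed here, and the labels give no ages. Each group had 2 replicates that the authors merged into 1 peak list, so every value below belongs to a group and has no replicate spread, and no test between the genotypes could be made. In sorted bulk cells, fewer cells with an open site and less opening per cell cannot be told apart.

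E proteins are basic helix-loop-helix factors that bind E-box DNA (CANNTG, where N is any base) as dimers. Tcf3 encodes E2A (E12 and E47), Tcf12 encodes HEB and Tcf4 encodes E2-2. Id proteins have the helix-loop-helix but no DNA-binding region, so that they pair with E proteins and keep them off DNA. In DP thymocytes HEB and E2A hold cells at the DP stage and sustain Rag and Tcra expression, and T cell receptor signals raise Id3 through Egr factors. HEB is also required for invariant natural killer T (iNKT) precursors, the cells the series is about, and Id2 and Id3 shape their later subsets.

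Within the gene bodies and 50 kb on each side, the 6 genes held 7 of the 7645 KO regions and 11 of the 15215 WT regions, which came to 12 separate sites. Of these sites 6 were called in both lists, 5 in WT only and 1 in KO only. The depth of the KO list was 0.752 times that of WT, as judged from a genome background of 1.03 reads in KO and 1.37 reads in WT. Id2 had the strongest gene-end region of the family in both lists, with a fold enrichment (the authors' value, the reads at the summit plus 1 over the local background plus 1) of 9.88 in KO and 10.0 in WT. Because of the added 1, fold enrichments at the same ratio of reads to background are lower in a shallower list. Id3 was the reverse of Tcf4 at the gene end, where Id3 had a region in KO only and Tcf4 in WT only. Tcf12 had none in either list.

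The promoters of Id2 and Id3 are shown because they are the 2 RefSeq promoters of the family that a called region covered. Each line gives 250 bases directly before the transcription start (build GRCm38.p6), read 5′ to 3′ in the direction of the gene. For Id2 (chr12:25096093-25096342, minus strand) the capitals mark the only CANNTG match, and for Id3 (chr4:136143572-136143821, plus strand) they mark the 130 bases that lay inside the KO region.
Id2: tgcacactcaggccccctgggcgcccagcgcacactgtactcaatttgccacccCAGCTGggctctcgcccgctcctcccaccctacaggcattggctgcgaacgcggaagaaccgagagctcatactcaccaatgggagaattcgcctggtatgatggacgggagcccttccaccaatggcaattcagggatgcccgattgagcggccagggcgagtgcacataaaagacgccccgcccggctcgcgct
Id3: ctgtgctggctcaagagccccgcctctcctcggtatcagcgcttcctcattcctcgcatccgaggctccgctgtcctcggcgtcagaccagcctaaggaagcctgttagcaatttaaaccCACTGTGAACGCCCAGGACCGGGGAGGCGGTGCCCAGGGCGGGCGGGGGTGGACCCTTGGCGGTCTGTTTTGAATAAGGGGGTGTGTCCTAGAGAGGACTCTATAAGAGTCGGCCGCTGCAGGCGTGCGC

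All 250 printed bases of Id2 lay inside its region in both lists. They held 1 E-box of the form CAGCTG, 196 to 191 bases before the start, 3 CCAAT boxes and 1 GGGCGG box on the other strand, 16 to 11 bases before the start. The printed bases of Id3 held no CANNTG match, but a TATAA stretch 29 to 25 bases before the start and 2 overlapping GGGCGG boxes, all inside the KO region. GC content was 62.8% in both promoters, and the median of all promoters was 52.4%. Motifs were searched on both strands, and CANNTG includes CAGCTG and CACCTG. Over 32536 distinct promoter stretches of the same length, CANNTG was found in 66.2%, CAGCTG in 13.1%, CACCTG in 17.3%, CCAAT in 33.8%, TATAA in 22.7% and GGGCGG in 33.0%. Promoters overlapped by a region differed from this. Of those overlapped in KO 69.1% held GGGCGG, 49.1% CCAAT, 8.10% TATAA and 53.0% CANNTG, and of those overlapped in WT 65.8% held GGGCGG, 42.3% CCAAT, 8.85% TATAA and 54.2% CANNTG. A match is a string of letters, and binding was not measured.

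A gene-end region is one within 1000 bp of either annotated end of a gene. In KO 3 of the 6 genes had such a region (Tcf3, Id2 and Id3), against 21.1% of all protein-coding genes. In WT 3 of the 6 had one (Tcf3, Tcf4 and Id2), against 34.6% of all. Of the 3 genes with a WT gene-end region 2 also had a KO one, against 59.4% of the 7568 protein-coding genes with a WT gene-end region. Over the wider windows, 6 of 11 WT regions had a KO region overlapping by at least 1 bp (54.5%, exact 95% interval 23.4 to 83.3), where 46.2% of all WT regions had one. In the other direction 6 of 7 KO regions had a WT region (85.7%, 42.1 to 99.6), against 92.6% of all KO regions. Both intervals include the background share, and they cover counting error only. The E protein genes held 4 KO and 7 WT regions with 4 shared, and the Id genes 3 KO and 4 WT regions with 2 shared.

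**Figure D1:**
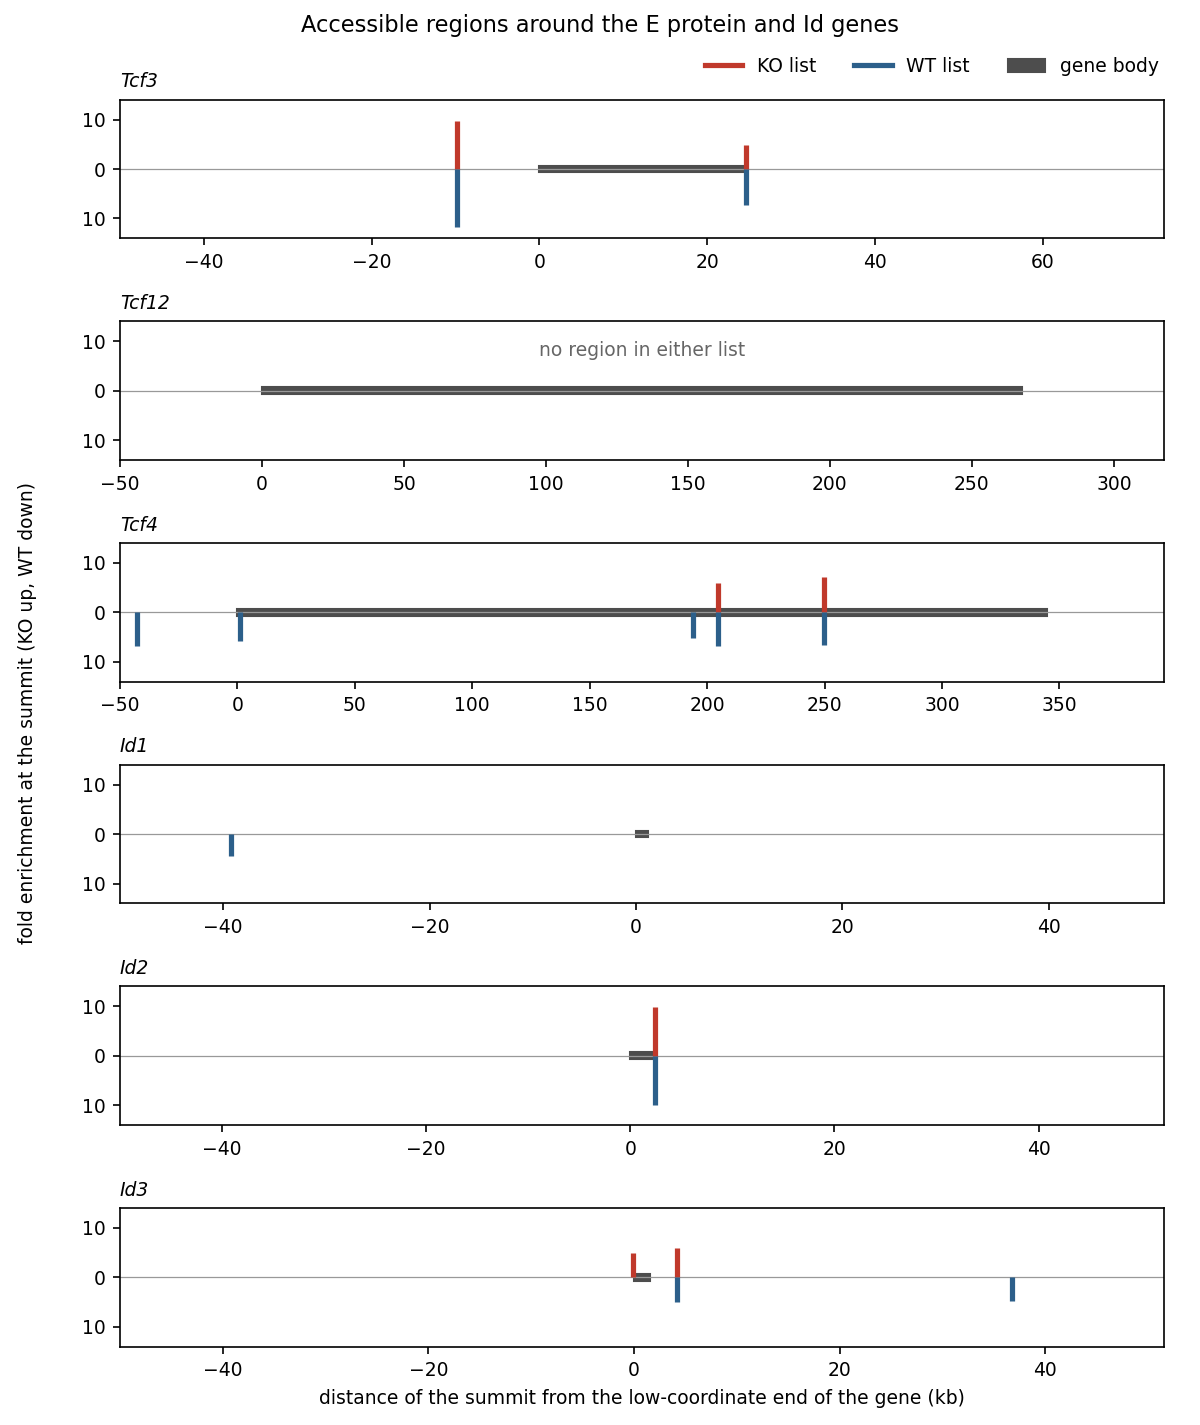
Regions around the 6 genes, by the distance of the region's summit from the low-coordinate end of the gene (kb, x axis) with the authors' fold enrichment at the summit (y axis), KO upward and WT downward. Tcf4 shows 2 KO and 5 WT regions, Id3 a KO region at its start with no WT counterpart, and Tcf12 none.

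Tcf3 lies on chromosome 10 (80409541 to 80433976, minus strand), so its start is at the high-coordinate end. The region at that end ran over chr10:80434030-80434246 in KO and chr10:80433963-80434269 in WT. Its summit lay 149 bp upstream of the outermost annotated start in KO and 181 bp upstream in WT. It held 11 reads in KO (95% Poisson interval 5.49 to 19.7) and 19 reads in WT (11.4 to 29.7), with a fold enrichment of 4.80 in KO and 7.25 in WT. KO thus had 36.7% of the reads of both lists (19.9 to 56.1), and equal accessibility at these depths would give 42.9%. That share lies inside the interval. The KO region was among the weakest of its list, at percentile 7.29 by fold enrichment, while the WT region stood at percentile 62.0. The RefSeq promoter window of Tcf3 starts from a site further into the gene (80433635) and was not overlapped by a region of either list.

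The other region in the Tcf3 window was a gene-end region of a neighbour. It lay within 1000 bp of an end of Mbd3, a subunit gene of the NuRD chromatin remodelling complex. From Tcf3 it lay 9796 bp by its KO summit and 9842 bp by its WT summit. It held 27 reads in KO (17.8 to 39.3) and 45 reads in WT (32.8 to 60.2), with fold enrichments of 9.72 in KO and 11.8 in WT, the highest of the family's windows in WT. Without this region 5 of 10 WT regions were shared, so the total count does not rest on it.

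Tcf12, the gene of the E protein HEB, had no region in either list over a window of 368 kb on chromosome 9 (gene 71844252 to 72111893). None of its 3 RefSeq promoter windows was overlapped. The nearest KO region lay 252 kb from the gene and the nearest WT region 163 kb from it. An empty window is common: 31.0% of all protein-coding genes had no WT region in theirs, as did 246 of the 661 genes at least as long as Tcf12 (37.2%). A gene without a called region was not called at this depth, which does not say that its promoter was closed.

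Tcf4, the gene of E2-2, lies on chromosome 18 (69343429 to 69687967) and held 2 regions in KO, as many as Tcf3 and Id3, and 5 in WT, the most of the family. Its window of 445 kb is also the longest, and per Mb of window it held 11.2 WT regions, against 16.1 at Tcf3 and 19.7 at Id3. Both KO regions lay deep in the gene body and were shared. The one at chr18:69547986-69548185 in KO and chr18:69547978-69548253 in WT held 11 reads in KO (5.49 to 19.7) and 18 reads in WT (10.7 to 28.4), with folds of 5.90 in KO and 6.74 in WT. Its summits were 17 bp apart. The other, at chr18:69593240-69593512 in KO and chr18:69593178-69593653 in WT, held 14 reads in KO (7.65 to 23.5) and 19 reads in WT (11.4 to 29.7), with folds of 7.08 in KO and 6.58 in WT. Its summits were 2 bp apart, and its KO share of 42.4% (25.5 to 60.8) was close to the 42.9% that depth alone gives.

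The other 3 Tcf4 regions were called in WT only. The gene-end region ran over chr18:69344169-69344496, inside the gene with its summit 984 bp from the low-coordinate end, and held 17 reads in WT (9.90 to 27.2) at a fold of 5.77. Scaled to the KO depth this is 12.8 reads, and at the local background expected there the weakest KO region had 9 reads. WT regions with as many reads, give or take 1, had a KO region in 31.9% of cases. The region 42761 bp below the gene held 15 reads in WT at a fold of 6.74, the highest of the WT-only sites, and scaled to 11.3 reads at KO depth. Of WT regions with a like number of reads 23.4% had a KO region. The region inside the gene at chr18:69537428-69537627 held 12 reads in WT at a fold of 5.16 and scaled to 9.03 reads, with 13.5% of like WT regions kept. For these last 2 sites the weakest KO call at such a background had 7 reads. The scaled numbers were therefore above the lowest number called in KO at all 3 sites. A missing KO region was nevertheless the more frequent outcome at such read numbers over the whole WT list.

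Id1 (chromosome 2, 152736251 to 152737410), which with the other Id genes responds to BMP signals through Smad factors in many cell types, had no region at its ends in either list. The only region in its window was in WT, at chr2:152696889-152697088 inside the neighbouring gene H13, and it was the weakest of the family with 10 reads (4.80 to 18.4) and a fold of 4.40. Scaled to KO depth it came to 7.52 reads, where the weakest KO call had 7. Of WT regions with a like number of reads 8.12% had a KO region.

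Id2 (chromosome 12, 25093799 to 25096092, minus strand) had 1 region in each list, over its promoter. It ran over chr12:25096038-25096404 in KO and chr12:25096043-25096496 in WT, and the shared stretch was 362 bp long. It held 32 reads in KO (21.9 to 45.2) and 43 reads in WT (31.1 to 57.9), and the WT number scaled to KO depth is 32.3. Fold enrichment was 9.88 in KO and 10.0 in WT, at percentiles 89.1 and 87.0 of their lists. The KO share of 42.7% (31.3 to 54.6) was again close to the 42.9% expected from depth. The summits were 4 bp apart, at 132 bp before the start in KO and 128 bp in WT. In the printed sequence they fall downstream of the E-box, between a CCAAT box on the other strand at 159 to 155 bases and one at 120 to 116 bases before the start. Reads in the 10 kb around the summit numbered 117 in KO and 169 in WT.

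Id3 (chromosome 4, 136143822 to 136145392, plus strand) had 2 regions in each list, of which 1 was shared. The region at its start was called in KO only, over chr4:136143692-136143900 with the summit 45 bp before the start, and held 14 reads (7.65 to 23.5) at a fold of 4.93. It was a weak region, at percentile 10.4 of the KO list by fold, with a −log10 q of 4.90. Scaled to the WT depth its reads come to 18.6, and at the local background expected in WT the weakest WT region had 12 reads. Of KO regions with a like number of reads 92.1% had a WT region. Of the 4621 protein-coding genes with a KO gene-end region 2.77% had none in WT, so genes with one in KO only are uncommon. Counted by region and at any position, 92.6% of all KO regions had a WT region. The 92.1% was matched on reads alone, and the local background here was 2.04 reads against a KO genome background of 1.03. The share for KO regions of like fold or like background was not analysed here. The WT read number at this site was not analysed here, and the lists give no interval for the difference. How many reads lay below the calling threshold in WT was not tested.

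The shared Id3 region lay just past the gene, with the summit 2613 bp beyond its 3′ end in KO and 2615 bp in WT. It ran over chr4:136147893-136148092 in KO and chr4:136147907-136148133 in WT. It held 16 reads in KO (9.15 to 26.0) and 19 reads in WT (11.4 to 29.7), and the WT number scaled to KO depth is 14.3. Fold enrichment was 5.99 in KO and 5.03 in WT, and the KO share of the reads was 45.7% (28.8 to 63.4). This was the highest KO share of the family's shared sites, and its interval holds the share given by depth. The local background in the 10 kb around it was 92 reads in KO and 149 reads in WT. The second WT region of Id3 lay inside the neighbouring gene E2f2, 35174 bp past the end of Id3, with 12 reads at a fold of 4.74 and no KO region.

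**Figure D2:**
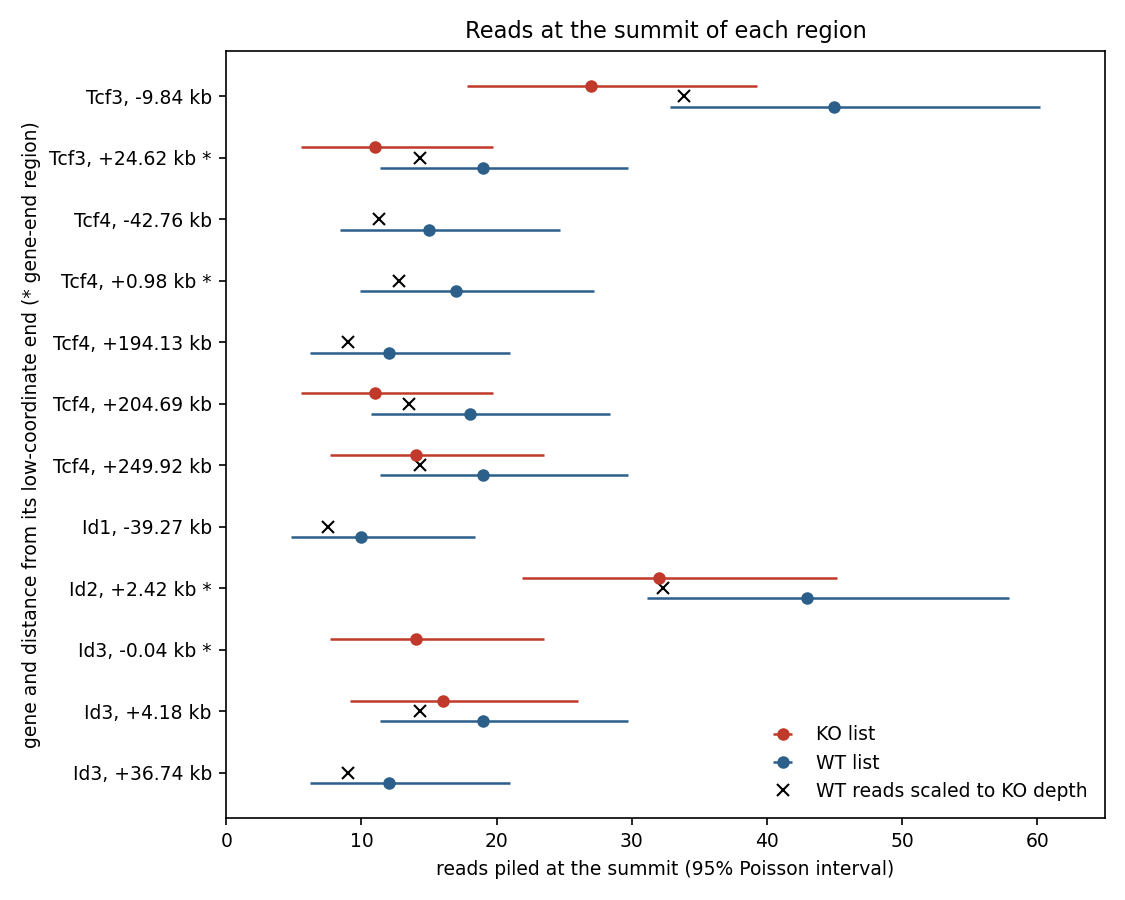
Reads piled at the summit (x axis, points with 95% Poisson intervals that cover counting error only) for each of the 12 sites (y axis, gene and distance of the summit from its low-coordinate end), in KO and in WT, with crosses for WT reads scaled to KO depth. At the 6 shared sites the scaled WT number lies inside the KO interval, for example 32.3 beside 32 reads at Id2.

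Across the 6 shared sites the ratio of KO to WT summit reads ran from 0.579 at the Tcf3 start to 0.842 beyond Id3, around the depth ratio of 0.752. Over all 6875 one-to-one pairs of regions in the 2 lists the median ratio was 0.655, with quartiles of 0.545 and 0.800, which is a median KO share of 39.6% and lower than the 42.9% given by depth. Summed over the 6 sites, KO held 111 reads and WT 163 reads, a KO share of 40.5% (34.6 to 46.6) whose interval holds both. The sum includes the region at Mbd3, with 27 reads in KO and 45 reads in WT, and was not taken without it. Sites enter this sum only when both lists called them, which keeps out sites with few KO reads. The summits of the shared sites lay 2 to 46 bp apart, and the median over all such pairs was 29.0 bp.

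The 5 WT-only sites were weaker than the shared ones. Their median fold enrichment in WT was 5.16, and that of the 6 shared sites was 7.0. The same order held over the whole list, with 5.67 for WT-only and 8.23 for shared regions. Median summit reads in WT were 12.0 at the WT-only and 19.0 at the shared sites of the family. Against that order, the WT region beyond Id3 had a fold of 5.03 and a KO counterpart, in a decile of WT fold in which 15.3% of regions had one. The Tcf4 region 42761 bp below the gene had no KO counterpart, in a decile in which 42.7% had one.

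**Figure D3:**
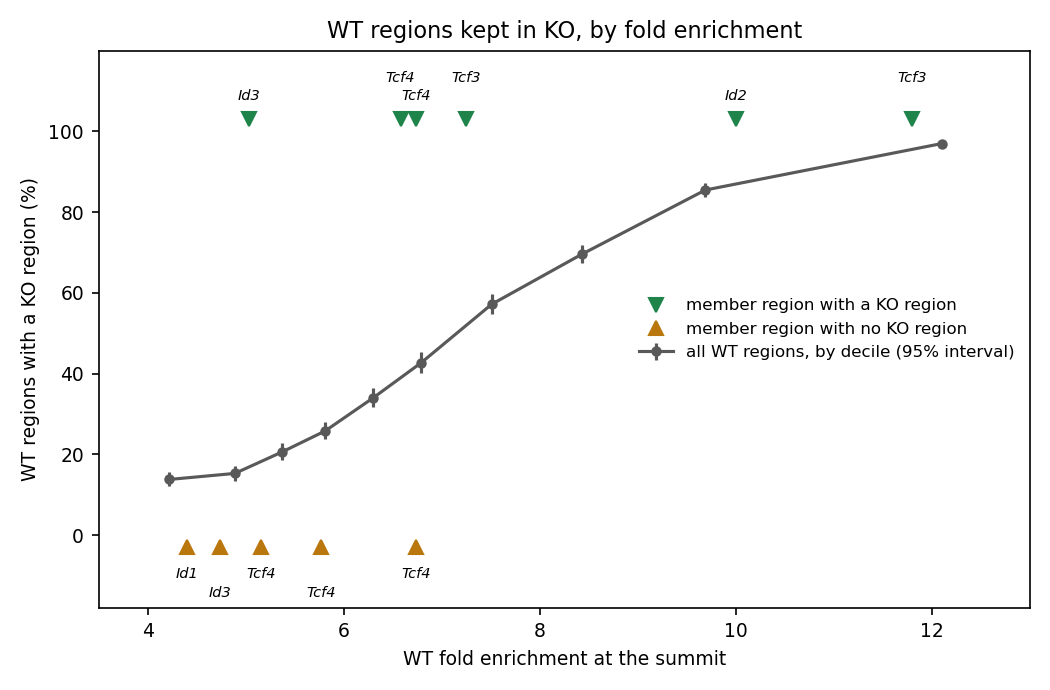
Percentage of WT regions with a KO region (y axis) against WT fold enrichment (x axis), for deciles of the WT list with exact 95% intervals, with the family's WT regions marked above when a KO region overlapped them and below when none did. The 2 strongest, at Mbd3 in the Tcf3 window and at Id2, were shared, and the regions of Id1, Id3 and Tcf4 below a fold of 6 that lack a counterpart fall where few WT regions were kept.

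The promoter table gave a stricter window, of 250 bases before to 50 bases after each start. It held 6 such windows of 4 of the genes, and none for Tcf4 and Id1. The Id2 window was overlapped in both lists and the Id3 window in KO only, and the 3 windows of Tcf12 and the 1 of Tcf3 in neither. Of all promoter windows 13.6% were overlapped by a KO region and 22.6% by a WT region.

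The wider E protein pathway was read at gene ends for 45 other genes in 4 groups. In KO 6 of them had a gene-end region and in WT 16 did. The 6 KO genes were all among the 16, a kept share of 37.5% (15.2 to 64.6) beside the 59.4% of all protein-coding genes with a WT region. The interval includes that background.

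Of 10 partners and antagonists of E proteins (Tal1, Lyl1, Tal2, Msc, Id4, Lmo1, Lmo2, Ldb1, Gata3 and Runx1), 0 had a gene-end region in either list, against 21.1% of all protein-coding genes in KO and 34.6% in WT. Their windows of gene body and 50 kb on each side still held 8 KO and 23 WT regions, of which 8 WT regions were shared (34.8%, against 46.2% of all WT regions). Of 7 cofactors, Cbfa2t2, an ETO-family corepressor gene, had 15 reads at a fold of 6.78 in KO and 38 reads at a fold of 12.9 in WT. Its KO share was 28.3% (16.8 to 42.3), an interval that ends below the 42.9% given by depth but holds the median share of 39.6% over all pairs. It was the lowest of 6 shares looked at among the pathway genes, without adjustment for their number, and the other 5 intervals held 42.9%. Ep300, the acetyltransferase that E protein activation domains recruit, was called in WT only, with 21 reads and a fold of 8.46.

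Of 10 genes of E protein turnover and of signals upstream of Id genes, Egr1 and Smad4 were called in both lists. Egr1, an immediate early factor that raises Id3 after T cell receptor signalling, had 17 reads at a fold of 5.26 in KO and 35 reads at a fold of 6.69 in WT, a KO share of 32.7% (20.3 to 47.1). Smad4, the common Smad of BMP and TGF-beta signalling, had 14 reads in KO and 22 reads in WT. The genes called in WT only were Notch1 (fold 6.52), whose signals promote E2A degradation, Stub1 (7.03), a ubiquitin ligase, and Smad1 (5.10), a Smad of the BMP branch. Egr2 and Egr3 had no gene-end region in either list.

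Of 18 target genes of E proteins in thymocytes, 9 had a WT gene-end region and 3 of these a KO one (33.3%, 7.49 to 70.1). The interval includes the 59.4% of all protein-coding genes. Sox4, a T cell transcription factor gene, had 19 reads at a fold of 5.15 in KO and 40 reads at a fold of 7.54 in WT. Socs1, an inhibitor of cytokine signalling, had 18 reads in KO and 29 reads in WT, and Cxcr4, the chemokine receptor that keeps DP cells in the cortex, 13 reads in KO and 22 reads in WT. Called in WT only were Cd3g (fold 8.10), Rag2 (7.19), Rag1 (6.57), Cd3d (4.78), Ptcra (4.64) and Gfi1 (4.11). The other 9, among them Cd4 and Zbtb16, had none in either list.

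**Figure D4:**
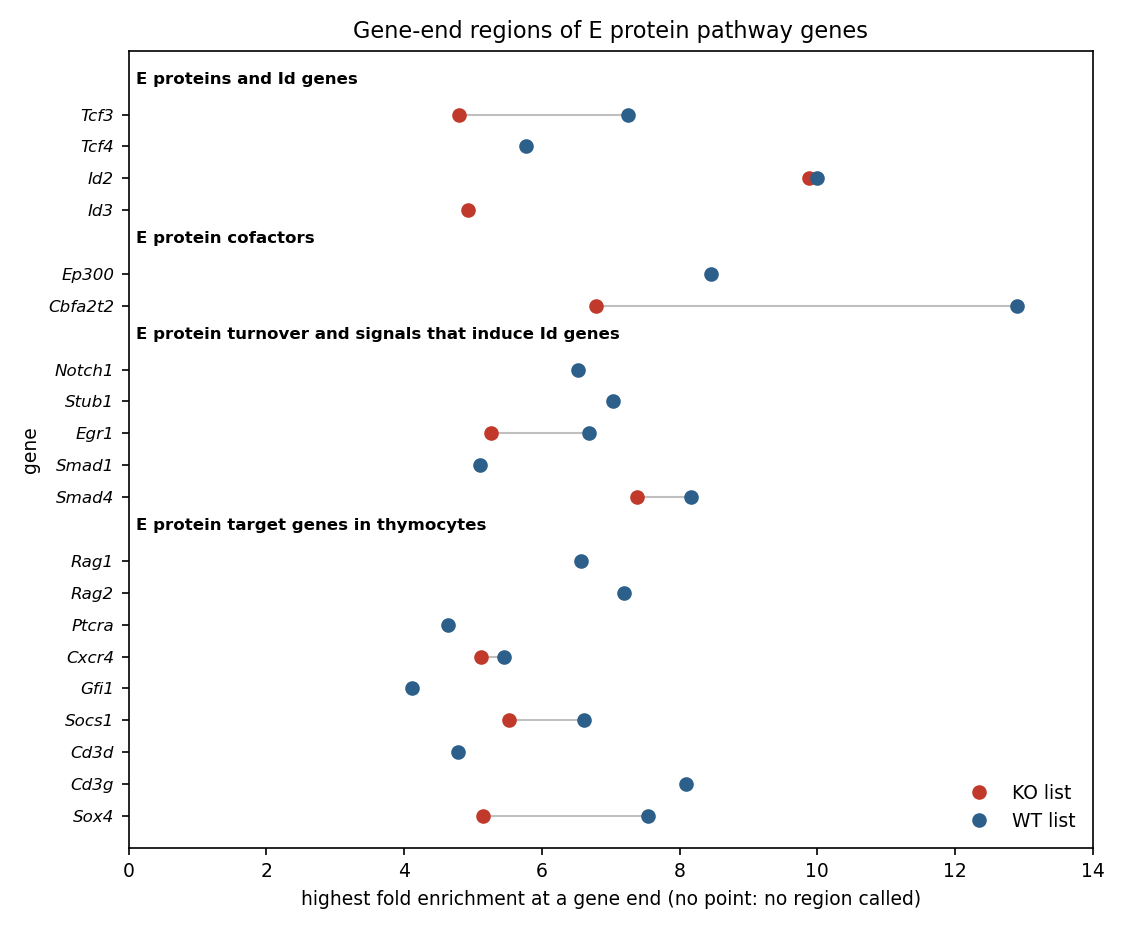
Highest fold enrichment at a gene end (x axis) in KO and in WT for the family and for the pathway genes with a region in at least 1 list (y axis, grouped by role). KO points lie left of WT points in every pathway gene called in both lists, with the widest gap at Cbfa2t2 (6.78 in KO and 12.9 in WT). Id2 shows 9.88 in KO and 10.0 in WT. Over all one-to-one pairs of regions the median ratio of KO to WT was 0.655 for summit reads and 0.692 for local background. The share of all pairs with a lower KO fold was not analysed here.

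The sorted population was checked against markers at gene ends. Of 13 DP thymocyte markers 1 had a KO region (Cd8b1) and 9 a WT region, where 21.1% of all protein-coding genes had one in KO and 34.6% in WT. The kept share was 1 of 9 (11.1%, 0.281 to 48.2). Its interval lies below the 59.4% of all protein-coding genes with a WT gene-end region, without adjustment for the number of lists looked at. That background is not matched on strength. The median WT fold of these marker regions was 6.57. In the decile of WT fold from 6.52 to 7.17, 42.7% of WT regions had a KO region. That share counts regions at any position and not genes, and the marker folds ran from 4.64 to 8.10. It is therefore no matched background for the 1 of 9 either. The kept share for gene-end regions of like fold was not analysed here. Cd4, Cd8a and Cd3e were among the DP markers with none in either list. The 7 myeloid, 4 erythroid and 6 epithelial and stromal markers had 0 in either list. A WT region at Ebf1 was the only one among 7 B cell markers, and of 5 natural killer and innate lymphoid markers Gzma and Prf1 had a region in both lists, with 14 reads each in KO, 20 reads at Gzma in WT and 21 reads at Prf1 in WT. The part of other cell types in the Id2 and Id3 regions was not tested.

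The counts of regions around Tcf4, Tcf3 and Id3, the genes with the most WT regions, were shared by many other genes. In the gene body and 50 kb flanks, 277 other protein-coding genes had the same 2 KO, 5 WT and 2 shared regions as Tcf4, and those closest in highest WT fold were Cadm4, Cdkl4 and Zfp428. For Tcf3 there were 898 such genes (Cyth2 and Grwd1 among the closest), and for Id3 156 (closest Atl3, Lhx2 and Tff1). Cadm4 and Zfp428 are neighbours on chromosome 7, as are Cyth2 and Grwd1, so their windows overlap and hold some of the same regions. Left out of the totals were genes with a Gm, Rik or LOC symbol, the family itself, and genes whose window overlapped that of the compared member. Other genes with windows overlapping each other were each counted, so these totals are not numbers of separate loci. The likeness rests on 3 counts from 2 lists.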

How the data were processed

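The submitters' processing notes name Trim Galore, Bowtie2, GATK, Picard, deepTools 3.4.1, FastQC and MACS2 2.1.4 and the build mm10, without order or settings. The authors deposited, for each region, a score (10 times the −log10 q, whole part), the fold enrichment of its summit, and −log10 values of p and q; the fold was used only to describe and rank regions. Whole summit reads and local backgrounds were solved from the deposited fold and −log10 p, and fitted 100% of regions of both lists within 0.001 in −log10 p. The most frequent background was taken as relative depth. A local background divided by 0.02 gives reads in 10 kb. Intervals (Clopper-Pearson for shares, Poisson for reads, 95%) cover counting error only, and reads may not be independent molecules. Gene positions and promoters came from RefSeq tables of GRCm38.p6, the assembly behind mm10, and promoter windows matched 4 of the 6 genes. Read numbers were called alike within 1 read and local backgrounds within 0.1.

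The genes, lists and rules were chosen with earlier results of these data known. Named were all 6 genes with each gene-end region, each KO-only region, the 3 strongest WT regions per gene and the 3 strongest WT-only regions; of pathway genes, those called at a gene end in 1 list or among the 3 highest WT folds of their group; and for the genes with most WT regions (Tcf4, then Tcf3 and Id3, tied) the 3 genes with the most similar counts. Some genes that these rules take are not reported here. Settings varied were the q threshold, overlap rule, flank, gene-end window and list length. The solver and overlap were tested on simulated data. Computation was done in Python 3.11.15 with scipy 1.17.1 (statistics), pandas 2.3.3 and numpy 2.4.6 (tables), and matplotlib 3.10.9 (plots).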

Additional observations from a re-analysis of the deposited data

How the results depend on the processing

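With a −log10 q of at least 5, 1 of the 6 genes (Id2) kept a KO gene-end region in place of 3, since the KO regions at the starts of Tcf3 and Id3 fell below it. With at least 10, again 1 gene had a KO gene-end region, and 2 of 3 WT regions and 2 of 2 KO regions were shared. On the gene body alone, 3 of 4 KO regions had a WT region. On the RefSeq promoter window, chosen after seeing the data, 1 gene (Id2) had a WT region in place of 3. Tcf4 and Id1 had no such window, so the WT region of Tcf4 could not count there. The shared WT count was 6 with each overlap rule and with a flank of 10 kb, and 9 of 24 (37.5%) with a flank of 100 kb, against 54.5% with 50 kb. The share of all WT regions with a KO region, given above, does not depend on the flank. Cutting the WT list to its 7645 highest folds left 5 of 6 WT regions shared (83.3%). Over the whole WT list the shared percentage also rose with fold, so a rise on cutting is not particular to the family. The share of all WT regions at that cut was not analysed here. With a gene-end window of 500 bp Tcf4 had no WT gene-end region and 2 genes had one. The KO-only call at Id3 held under each gene-end window and was lost at the stricter q thresholds. No paired analysis was possible because each list merges both replicates of a group, and for the same reason no replicate could be left out. All sites but those at Mbd3 and Id2 rest on 10 to 19 reads in a list, and no setting varied the depth.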
